A study of Mus musculus with 4 samples.

Results

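The class 3 semaphorins *Sema3a*, *Sema3b*, *Sema3c*, *Sema3d*, *Sema3e*, *Sema3f* and *Sema3g* and the neuropilins *Nrp1* and *Nrp2* were followed in RNA sequencing data of sorted embryonic mouse cells of the *Hmx3* lineage with and without *Dnmt1*. The 9 genes were picked out by their symbols in GENCODE release M21, with no measured value in the rule although earlier results of these data were known, and all 9 were found among the 55573 genes counted. Cells were tdTomato-positive cells isolated from the basal telencephalon at E16 by fluorescence-activated cell sorting (FACS), counting the day of insemination as E1, and the paper places their origin in the preoptic area (POA). *Dnmt1* WT embryos carried *Hmx3-Cre* and the tdTomato reporter, and *Dnmt1* KO embryos carried *Hmx3-Cre*, the reporter and the *Dnmt1* loxP2 allele, which *Cre* turns into a null allele, all on a C57BL/6J background. Deletion was thus limited to cells with a history of *Hmx3* expression. The data comprised 4 libraries, 2 per genotype, from cells pooled from 12 WT and 6 KO embryos. The labels call the libraries biological replicates and the paper calls them technical duplicates of pooled samples, so that SDs and p-values describe the spread between libraries, which may be technical.

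Class 3 semaphorins are secreted guidance proteins that steer growing axons and migrating neurons. They mostly act through a receptor complex in which a neuropilin binds the ligand and a plexin of the A family carries the signal into the cell. SEMA3E is the exception, as it can bind PLXND1 without a neuropilin, and both neuropilins also bind vascular endothelial growth factor (VEGF). In the embryonic basal telencephalon, SEMA3A and SEMA3F repel neuropilin-bearing cortical interneurons from the striatum, which leaves them on their path towards the cortex. DNMT1, the enzyme removed in KO cells, copies DNA methylation at CG dinucleotides.

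The libraries held between 8075102 and 9995968 counts, at which 3 counts amount to 0.294 to 0.372 CPM, CPM being the usual library-size-scaled counts, here with TMM factors, and floors of this kind cover counting error only. WT replicate 1 stood apart, with 8.66% of its counts in mitochondrial rRNA against 1.51% to 2.32% in the other libraries. The WT libraries held 3103 and 4557 counts of *Dnmt1* and the KO libraries 2383 and 2552. The log2 fold change was -0.56 (edgeR adjusted p = 0.0511), just above the threshold of 0.05, and the genotypes did not overlap. *Dnmt1* passed in 9 of 13 alternatives, DESeq2 (0.00843), limma-voom (0.0358) and the replicate block (0.0149) among them, and did not pass with library size only (0.151), with at least 10 counts in every library (0.0739), without KO replicate 1 (0.386) or without KO replicate 2 (0.521). The deletion need not remove the transcript, so that this is a partial check of the labels. All 6 neuron, 7 GABAergic and 5 preoptic area markers checked were detected in every library, *Hmx3* with 633 and 919 counts in the WT libraries, then 604 and 851 in the KO libraries. Astrocyte and mural cell markers differed strongly between genotypes and are set beside the results they accompany.

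The genes lie in a few stretches of the genome. *Sema3d*, *Sema3a*, *Sema3e* and *Sema3c* follow each other on the plus strand of chromosome 5 of GRCm38, *Sema3d* from 12383385 to 12588948, *Sema3a* from 13125414 to 13602565, *Sema3e* from 14025276 to 14256689 and *Sema3c* from 17574281 to 17730268. *Sema3b* (107597674 to 107609229) and *Sema3f* (107681500 to 107710475) are neighbours on the minus strand of chromosome 9, 72.3 kb apart with 3 protein-coding genes between them. *Sema3g* is on chromosome 14 (31217860 to 31230352), *Nrp1* on chromosome 8 (128358604 to 128503363) and *Nrp2* on chromosome 1 (62703285 to 62818695), each on the plus strand. The chromosome 5 genes are long and poor in G and C, with transcripts of 39.2% to 42.1% GC, whereas *Sema3b*, *Sema3f* and *Sema3g* span 11.6 to 29.0 kb and reach 56.2% to 58.6%. No gene on the opposite strand shares exonic bases with any of the 9 genes, and the only annotated gene that shares any is *Mir1903*, which covers 80 exonic bases of *Nrp1* (0.818%) on the same strand. Other annotated genes lie within *Sema3a*, *Sema3d*, *Sema3e* and *Nrp2* outside their exons, among them the antisense genes *Gm4128* in *Sema3e* and *Gm29083* in *Nrp2*.

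As DNMT1 acts at CG dinucleotides, these were counted in the RefSeq promoter windows (GRCm38.p6, 250 bases before to 50 after the start), which were given for *Sema3a*, *Sema3c*, *Sema3d*, *Sema3e*, *Sema3g*, *Nrp1* and *Nrp2*. The motif searched was CG, which reads alike on both strands. *Sema3c* had 42 CG dinucleotides in its window, a number reached by 3.03% of 32841 promoters, and *Nrp2* had 37, reached by 5.58%. *Nrp1* had 14 (36.3% of promoters had as many), *Sema3e* 11 (41.4%), *Sema3d* and *Sema3g* 8 each (48.7%) and *Sema3a* 2 (85.9%). At least 1 CG was present in 94.6% of all promoters. The sequences below show this contrast for the neuropilin pair and for a pair of chromosome 5 ligands, 5′ to 3′, restricted to bases before the start site that lie in no annotated exon, with CG in capitals. For *Nrp1* and *Sema3a* the RefSeq start lies inside the longer GENCODE gene model, so that these bases are intronic there. The *Sema3c* start also lies inside its gene model, and 0 of the 250 bases before it lie outside annotated exons. Its CG dinucleotides were thus not counted in sequence upstream of the gene.
Nrp2, GRCm38 chr1:62703067-62703284, plus strand: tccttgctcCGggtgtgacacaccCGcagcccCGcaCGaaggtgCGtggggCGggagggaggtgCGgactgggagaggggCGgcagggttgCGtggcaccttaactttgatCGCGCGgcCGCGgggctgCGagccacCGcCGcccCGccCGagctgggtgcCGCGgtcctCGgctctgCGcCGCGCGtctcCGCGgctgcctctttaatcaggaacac
Nrp1, GRCm38 chr8:128358823-128359072, plus strand: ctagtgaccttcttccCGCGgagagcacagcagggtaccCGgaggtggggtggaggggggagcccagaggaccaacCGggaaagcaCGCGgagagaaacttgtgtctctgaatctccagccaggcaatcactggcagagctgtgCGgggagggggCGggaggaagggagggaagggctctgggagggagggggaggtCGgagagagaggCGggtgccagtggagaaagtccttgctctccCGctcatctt
Sema3d, GRCm38 chr5:12382916-12383165, plus strand: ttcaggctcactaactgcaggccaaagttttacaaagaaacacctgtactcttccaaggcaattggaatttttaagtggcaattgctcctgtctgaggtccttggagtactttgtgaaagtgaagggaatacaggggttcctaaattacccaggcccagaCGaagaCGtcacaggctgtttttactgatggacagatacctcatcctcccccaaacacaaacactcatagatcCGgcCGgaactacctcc
Sema3a, GRCm38 chr5:13396534-13396783, plus strand: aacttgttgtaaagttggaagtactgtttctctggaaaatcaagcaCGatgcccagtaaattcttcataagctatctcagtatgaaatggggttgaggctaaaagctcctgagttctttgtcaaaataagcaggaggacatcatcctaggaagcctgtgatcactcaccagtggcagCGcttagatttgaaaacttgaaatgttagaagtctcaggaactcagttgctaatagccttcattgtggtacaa
Of the printed bases, 28 CG dinucleotides fall in the 218 bases of *Nrp2*, 11 in the 250 of *Nrp1*, 4 in the 250 of *Sema3d* and 2 in the 250 of *Sema3a*. DNA methylation at these sites was not analysed here.

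**Figure D1:**
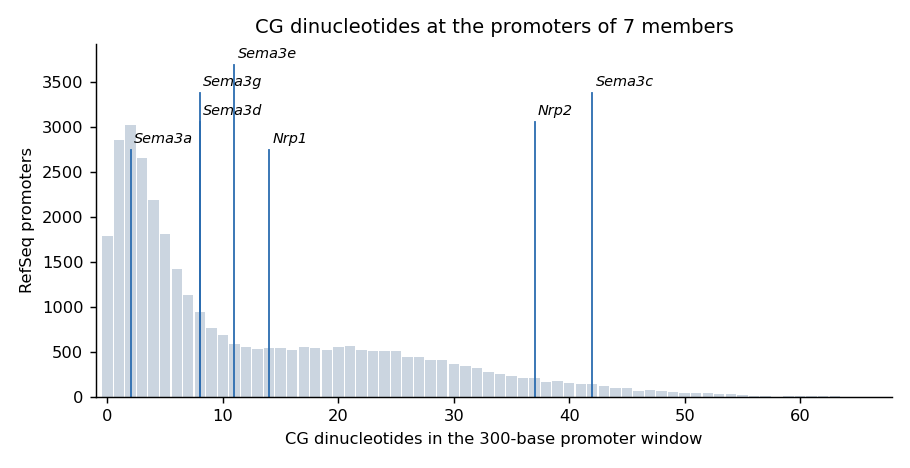
Number of RefSeq promoters (vertical axis) by their count of CG dinucleotides in a 300-base window (horizontal axis), with blue lines at the counts of 7 class 3 semaphorin and neuropilin genes. *Sema3c* (42) and *Nrp2* (37) lie in the upper tail, and *Sema3a* (2) lies among the promoters with fewest.

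The receptors were far more abundant than the ligands. Per kb of exon, which allows genes to be compared, the WT level of *Nrp2* was 28.8 ± 1.89 CPM per kb (SD, n = 2) and that of *Nrp1* 27.9 ± 1.70 CPM per kb (SD, n = 2), with 92.0% and 91.6% of the genes tested at or below these levels. *Sema3f* (7.67 ± 1.63) and *Sema3c* (6.84 ± 1.33) followed, then *Sema3a* (1.79 ± 0.487) and *Sema3d* (0.837 ± 0.103). *Sema3b* (0.274 ± 0.127), *Sema3e* (0.181 ± 0.0468) and *Sema3g* (0.124 ± 0.0987) were close to the detection limit. In WT the ranges of *Nrp2* and *Nrp1*, of *Sema3f* and *Sema3c*, and of neighbours among the lowest 3 genes overlapped. Within each WT library *Nrp2* lay slightly above *Nrp1* (27.5 against 26.7, then 30.1 against 29.1 CPM per kb), and *Sema3b* above *Sema3e*. *Sema3f* and *Sema3c* changed order between the WT libraries, as did *Sema3g* with both *Sema3b* and *Sema3e*. These orders are not set by the WT libraries.

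In KO the order of levels per kb was *Nrp1* (23.2 ± 0.152 CPM per kb, SD, n = 2), *Nrp2* (22.0 ± 0.912), *Sema3f* (5.30 ± 0.364), *Sema3c* (3.87 ± 0.537), *Sema3a* (1.23 ± 0.318), *Sema3d* (0.842 ± 0.0956), *Sema3b* (0.365 ± 0.234), *Sema3g* (0.155 ± 0.151) and *Sema3e* (0.125 ± 0.0764). In KO the ranges of *Nrp1* and *Nrp2* did not overlap. The range of *Sema3g* overlapped those of *Sema3b* and *Sema3e*, which did not overlap each other. The KO order of the neuropilins rests on division by the union of exons (9.79 kb for *Nrp1*, 11.8 kb for *Nrp2*). That length need not be the length of the transcripts expressed. In CPM, *Nrp2* was above *Nrp1* in both KO libraries (253 and 269 against 226 and 228). The ratio of *Nrp1* to *Nrp2* per kb was 0.971 and 0.965 in the WT libraries and 1.08 and 1.03 in the KO libraries.

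**Figure D2:**
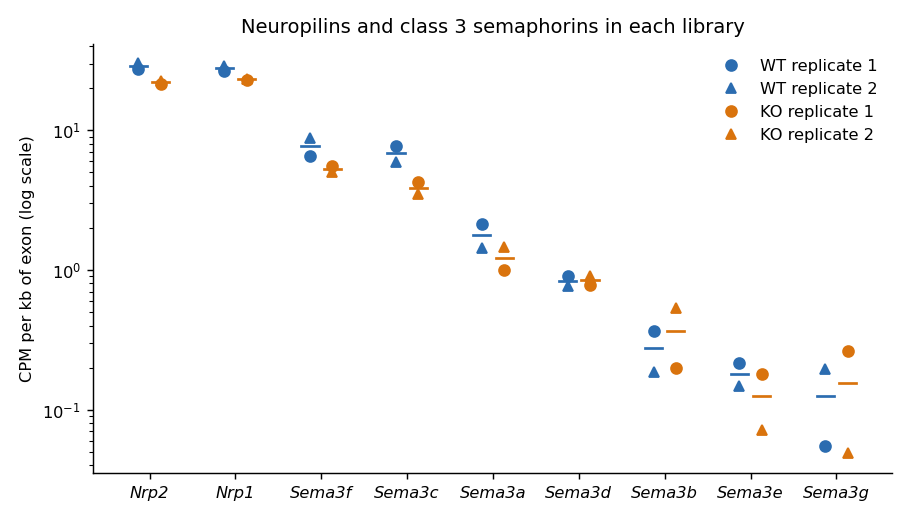
Level of each gene in CPM per kb of exon on a log axis, ordered by the WT mean. Circles are replicate 1, triangles are replicate 2, and short lines are the mean of the 2 libraries of a genotype. The neuropilins lie above 20 CPM per kb in every library, and the KO points lie below the WT points for *Nrp2*, *Nrp1*, *Sema3f* and *Sema3c*.

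KO was compared with WT to ask which transcripts differ after *Dnmt1* deletion. Among the 8 of 9 genes that passed edgeR's expression filter, *Sema3c* was lower in KO at an adjusted p under 0.05 and 0 genes were higher. Of all 16832 genes tested, 7.90% were called, 0.570% lower and 7.33% higher. At an unadjusted p under 0.05, 3 of the 8 genes were lower (*Sema3c*, *Sema3f* and *Nrp2*) and 0 were higher, against 8.01% lower and 14.6% higher over all genes. DESeq2 and limma-voom also called 0 of the 8 genes higher, against 7.40% and 7.21% of all genes. DESeq2 called 1 lower (*Sema3c*, adjusted p = 0.0156), against 1.47% of all genes. With limma-voom 0 were lower (*Sema3c*, adjusted p = 0.0525), against 0.594%. The genotypes did not overlap for 4 of the 8 genes, against 53.5% of all genes tested. In these 4 (*Sema3c*, *Sema3f*, *Nrp1* and *Nrp2*) KO lay below WT, as in 25.2% of all genes, and KO lay above WT in 0 of the 8, against 28.3%. The median log2 fold change was -0.46 over the 8 genes, against -0.026 over all genes tested. In bulk libraries, fewer cells that express a gene and less RNA per cell cannot be told apart.

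The number of genes called depended on single libraries. A fit without 1 WT library takes its spread between replicates from the KO pair alone. That pair differed less than the WT pair (chi-square over its degrees of freedom 4.31 against 58.2), so that more genes pass whichever WT library is left out. Without WT replicate 1, the library with the high mitochondrial rRNA share, 4 of the 9 genes then tested were lower (*Sema3c*, *Sema3f*, *Nrp1* and *Nrp2*), but 7.15% of all genes were then called lower as well. Without WT replicate 2 *Sema3a* and *Sema3c* were called lower, against 12.0% of all genes. Without KO replicate 1 or KO replicate 2, 0 of the semaphorins and neuropilins were called in either direction, against 0.656% and 0.288% of all genes lower and 5.35% and 5.08% higher. With a correction for the length and GC content of each gene, calls rose from 1233 to 1973 higher and from 96 to 949 lower, so that the share of higher genes among all calls was 67.5% instead of 92.8%, and *Sema3c* and *Sema3f* were lower, against 5.64% of all genes.

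*Sema3c*, a ligand known to be able to attract cortical axons and to guide cells of the developing heart, was counted 448 and 430 times in the WT libraries and 255 and 226 times in the KO libraries. Its levels were 55.6 and 42.1 CPM against 30.3 and 24.9 CPM, without overlap. The WT mean was 48.9 ± 9.53 CPM (SD, n = 2), and the KO mean was 27.6 ± 3.84 CPM (SD, n = 2). The log2 fold change of *Sema3c* was -0.82 (standard error 0.20, 95% confidence interval -1.28 to -0.36, edgeR adjusted p = 0.0442), or 0.565 times the WT mean. Over the 9 alternative fits with all 4 libraries it was between -0.83 and -0.55 with adjusted p from 0.00194 to 0.0568, and it missed the threshold with limma-voom (0.0525) and with at least 10 counts in every library (0.0568). It also missed it without KO replicate 1 (-0.96, adjusted p = 0.0625) and without KO replicate 2 (-0.68, 0.366), whereas it was -0.62 without WT replicate 1 and -1.02 without WT replicate 2.

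*Sema3f*, a ligand that prefers NRP2 and repels interneurons and hippocampal axons, was counted 273 and 468 times in WT, then 243 and 238 times in KO, or 33.9 and 45.9 CPM against 28.9 and 26.2 CPM. The genotypes did not overlap, although WT replicate 1 lay close to the KO libraries. The *Sema3f* difference was -0.54 in log2 (standard error 0.20, 95% confidence interval -0.99 to -0.080) and did not pass over all genes tested (edgeR adjusted p = 0.157). It passed after the length and GC correction (-0.53, adjusted p = 0.0350). Without WT replicate 1 it was -0.74, whereas without WT replicate 2 it was -0.31.

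*Sema3a*, the ligand known for collapsing growth cones through NRP1, was counted 238 and 204 times in WT, then 117 and 183 times in KO, or 29.5 and 20.0 CPM against 13.9 and 20.2 CPM. The genotypes overlapped, since KO replicate 2 lay slightly above WT replicate 2. The log2 fold change of *Sema3a* was -0.53 (standard error 0.27, 95% confidence interval -1.16 to 0.094, edgeR adjusted p = 0.289). It was -0.16 (adjusted p = 0.664) after the length and GC correction, and -0.80 without WT replicate 2. Without WT replicate 1 it was -0.23, without KO replicate 1 -0.28 and without KO replicate 2 -0.82.

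*Sema3d* had nearly equal levels, with 63 and 67 counts against 56 and 71. These are 7.82 and 6.56 CPM in WT and 6.66 and 7.82 CPM in KO, and the genotypes overlapped. The log2 fold change was 0.014 with a 95% confidence interval from -0.68 to 0.71 (edgeR adjusted p = 0.988), an interval that holds changes of moderate size in both directions. After the length and GC correction it was 0.39 (adjusted p = 0.428).

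*Sema3b*, *Sema3e* and *Sema3g* were too sparse for a difference of moderate size to be detectable at this depth. *Sema3b*, a ligand first known as a tumour suppressor, was counted 14 and 9 times in WT, then 8 and 23 times in KO (log2 fold change 0.44, 95% confidence interval -1.14 to 2.02, edgeR adjusted p = 0.754). *Sema3e*, the ligand of PLXND1, was counted 16 and 14 times in WT, then 14 and 6 times in KO (-0.52, -2.03 to 0.98, adjusted p = 0.678). *Sema3g*, known from endothelial cells, was counted 2 and 9 times in WT, then 10 and 2 times in KO, and did not pass the expression filter. Without a filter it differed by 0.27 in log2 (standard error 1.14, edgeR adjusted p = 0.931). The genotypes overlapped in each of these genes.

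Summed per kb, the 7 ligands came to 18.0 and 17.5 CPM per kb in WT and to 12.2 and 11.5 CPM per kb in KO. *Sema3c* made up 43.3% and 33.8% of this sum in WT and 34.7% and 30.2% in KO, and *Sema3f* 36.3% and 50.5% in WT and 45.5% and 43.7% in KO. The WT libraries differed from each other in which ligand led, *Sema3c* in WT replicate 1 and *Sema3f* in WT replicate 2. The summed neuropilins were 3.01 and 3.39 times the summed ligands in WT and 3.64 and 3.98 times in KO.

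*Nrp1*, the neuropilin that binds SEMA3A, was counted 2102 and 2903 times in WT, then 1899 and 2069 times in KO, or 261 and 284 CPM against 226 and 228 CPM. *Nrp2*, the neuropilin that binds SEMA3F, was counted 2620 and 3642 times in WT, then 2131 and 2439 times in KO, or 325 and 357 CPM against 253 and 269 CPM. In both genes the KO libraries lay below the WT libraries. The log2 fold change was -0.27 for *Nrp1* (standard error 0.13, 95% confidence interval -0.58 to 0.045, edgeR adjusted p = 0.285) and -0.39 for *Nrp2* (standard error 0.14, -0.70 to -0.072, adjusted p = 0.142), so that neither passed over all genes tested. Without WT replicate 1 these were -0.33 and -0.46. After the length and GC correction, *Nrp1* was at -0.11 (adjusted p = 0.538), while *Nrp2* was at -0.32 (0.0543).

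**Figure D3:**
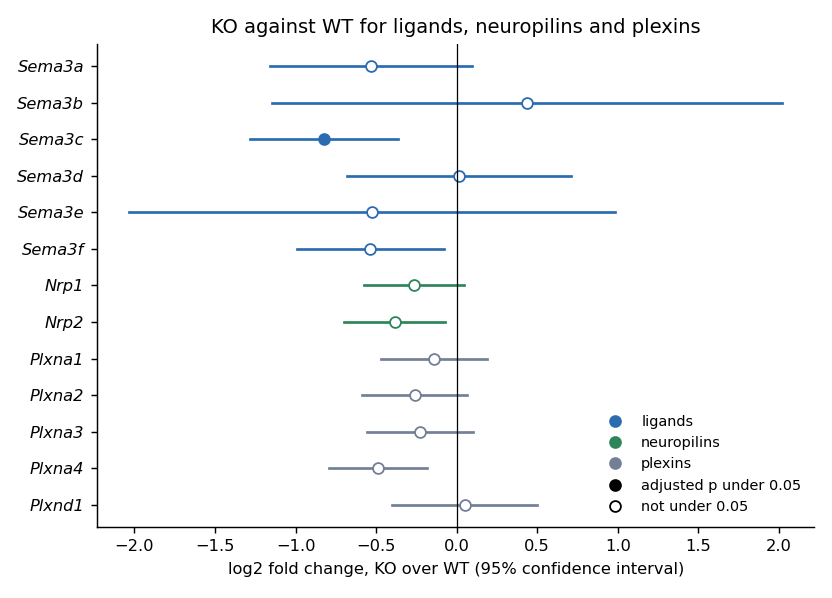
Log2 fold change of KO over WT (horizontal axis) for the 6 ligands and 2 neuropilins tested and for 5 plexins, with lines for the 95% confidence interval from edgeR. Filled points have an adjusted p under 0.05, which holds for *Sema3c* alone among the 13 genes shown.

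The genes whose levels over the 4 libraries were most like those of the neuropilins were found by the root mean square difference in log2 CPM. For *Nrp1* these were *Zcchc18* (0.032) and *Eif3c* (0.039), and for *Nrp2* they were *Cfl1* (0.049) and *Ssbp3* (0.061). The 4 libraries share depth and composition, and likeness over them is a description.

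The summed neuron markers were also lower in KO, and these values stand beside every direction given above. The 6 neuron markers *Tubb3*, *Dcx*, *Stmn2*, *Elavl3*, *Rbfox3* and *Map2* summed to 5758 and 5252 CPM in WT and to 3996 and 3934 CPM in KO. Their median log2 fold change was -0.45, and 1 of the 6, *Stmn2*, was called lower. At an unadjusted p under 0.05, 4 of the 6 were lower (*Tubb3*, *Dcx*, *Stmn2* and *Map2*). Over all genes tested, 0.570% were called lower and 8.01% were lower at an unadjusted p under 0.05. The 7 GABAergic markers had a median of -0.29 with 0 called (2 lower at an unadjusted p under 0.05), and the 5 preoptic area markers summed to 285 and 280 CPM in WT and 228 and 255 CPM in KO with 0 called (1 at an unadjusted p under 0.05). Relative to the summed neuron markers, a scaling chosen after the values were seen, *Sema3c* remained lower, at 9.66 and 8.02 per 1000 CPM of marker in WT and 7.59 and 6.33 in KO, with a log2 ratio of -0.35. As the marker sum was lower in KO, this scaling raises the log2 value of every gene. On the same scale *Nrp1* was higher in KO (45.3 and 54.2 in WT, 56.5 and 57.9 in KO, log2 ratio 0.20) and *Nrp2* overlapped (56.5 and 67.9 in WT, 63.4 and 68.3 in KO, log2 ratio 0.082). *Sema3f* (log2 ratio -0.073) and *Sema3a* (-0.055) overlapped as well, and *Sema3d* was higher in both KO libraries (1.36 and 1.25 in WT, 1.67 and 1.99 in KO).

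Markers of other cell types moved with the genotype. All 12 astrocyte markers were called higher in KO, their sum being 310 and 307 CPM in WT and 5288 and 5142 CPM in KO, with *Gfap* at 0 in both WT libraries. *Opalin* of the oligodendrocyte markers and *Acta2* of the mural markers were at 0 in both WT libraries as well. Of the oligodendrocyte markers 7 of 8 were higher (130 and 154 CPM in WT, 580 and 560 CPM in KO), of the mural markers 6 of 8 (53.6 and 61.3 CPM, then 380 and 381 CPM), of the microglial markers 2 of the 8 tested (34.3 and 39.2 CPM, then 70.7 and 77.3 CPM) and of the oligodendrocyte precursor markers 1 of 5 (1283 and 1339 CPM, then 1631 and 1707 CPM), where 7.33% of all genes were higher. At an unadjusted p under 0.05, 6 of the 8 microglial and 4 of the 5 oligodendrocyte precursor markers were higher, against 14.6% of all genes. Endothelial markers, whose cells also carry neuropilins, summed to 16.3 and 17.0 CPM in WT and 17.8 and 19.8 CPM in KO, with 0 of 7 called (1 at an unadjusted p under 0.05). Choroid plexus markers summed to 56.6 and 70.6 CPM in WT and 9.87 and 10.9 CPM in KO. Of the 5 tested, 1 was called lower (*Ttr*), against 0.570% of all genes. The unadjusted p was under 0.05 for 2 lower genes (*Ttr* and *Otx2*), against 8.01% of all genes. Most of the WT sum was *Ttr*, at 40.8 and 55.3 CPM in WT and 0.951 and 1.10 CPM in KO. The genotypes overlapped for 2 of the 5, *Kl* and *Prlr*. Meningeal fibroblast markers summed to 33.3 and 35.5 CPM in WT and 44.3 and 36.0 CPM in KO with 0 of 4 called (1 at an unadjusted p under 0.05). The part of these cell types in the levels of the semaphorins, neuropilins and pathway genes was not tested.

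Of the 5 plexins, the signalling subunits of the receptor, 0 passed the threshold, against 7.90% of all genes tested. At an unadjusted p under 0.05, 1 was lower (*Plxna4*), against 8.01% of all genes. Their median log2 fold change was -0.23. *Plxna2* was counted 5118 and 6437 times in WT, then 4132 and 5132 times in KO, and its log2 fold change was -0.26 (edgeR adjusted p = 0.319). *Plxna4*, the main partner of NRP1 in many neurons, was counted 3167 and 3835 times in WT, then 2254 and 2540 times in KO, which gave -0.49 in log2 (standard error 0.13, adjusted p = 0.0661). It passed in 8 of 13 alternatives, with DESeq2 (0.0186), limma-voom (0.0451), the replicate block (0.0267) and the length and GC correction (0.0247) among them. It did not pass with DESeq2's size factors (0.0579), library size only (0.212) or at least 10 counts in every library (0.0979), nor without KO replicate 1 (0.570) or KO replicate 2 (0.581). *Plxna1* (-0.14), *Plxna3* (-0.23) and *Plxnd1* (0.050) had adjusted p-values of 0.597, 0.379 and 0.913, and the sign of *Plxnd1* turned without WT replicate 1.

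Of the wider pathway, 47 genes were listed and 45 tested, with 6 called higher and 0 called lower (edgeR adjusted p under 0.05), against 7.33% and 0.570% of all genes. At an unadjusted p under 0.05, 9 were higher and 6 lower, against 14.6% and 8.01% of all genes. The median log2 fold change was -0.056 over the 45 pathway genes tested. Among the 18 signalling genes, *Mical2*, an actin-oxidising enzyme, rose from 81 and 108 counts to 1221 and 1314 (log2 fold change 3.81, edgeR adjusted p = 6.33e-06), and *Fes*, a tyrosine kinase, rose from 3 and 4 counts to 24 and 35 (adjusted p = 0.0181). The 3 adhesion partners *L1cam*, *Nrcam* and *Chl1* had log2 fold changes of -0.41, 0.029 and -0.30, with adjusted p-values of 0.136 or more. *Vegfa*, a ligand of NRP1, was higher (log2 fold change 1.87, adjusted p = 9.4e-05), and 0 of the other 5 VEGF genes tested was called (2 at an unadjusted p under 0.05). Among 13 transmembrane or anchored semaphorins of the other classes, *Sema4a* (0.72, adjusted p = 0.0314), *Sema4b* (0.72, 0.0255) and *Sema4d* (0.80, 0.0334) were higher and 0 were lower (0 at an unadjusted p under 0.05). The median of the log2 fold changes was 0.043 over these 13 genes and -0.53 over the 6 class 3 semaphorins tested, and the difference between the classes was not tested.

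**Figure D4:**
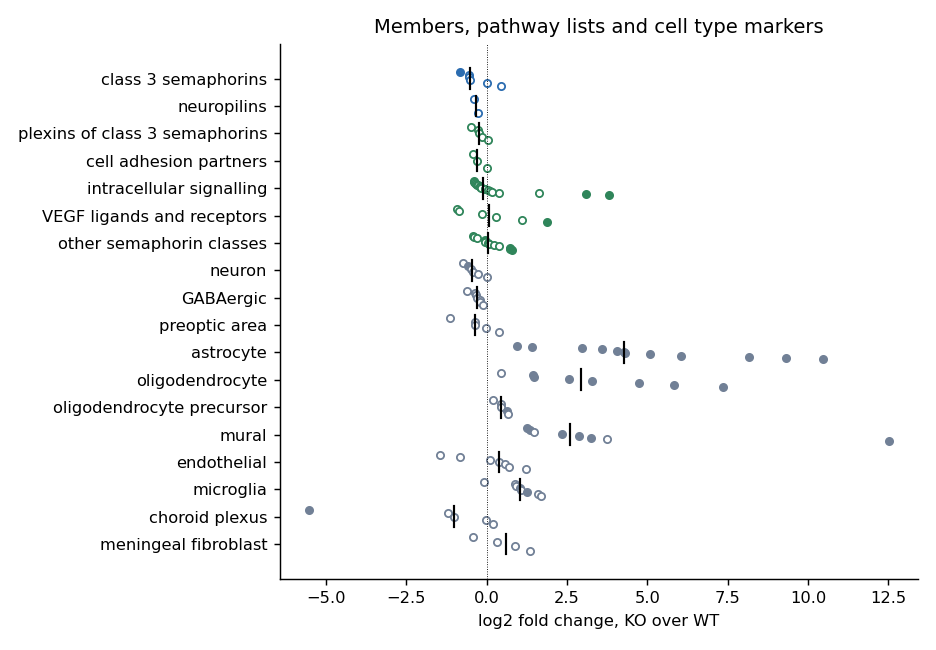
Log2 fold change of KO over WT for each gene tested, by list, with filled points for an adjusted p under 0.05 and a black bar for the list's median. Class 3 semaphorins lie between -0.82 and 0.44 (median -0.53), neuropilins at -0.39 and -0.27 and neuron markers between -0.72 and 0.028 (median -0.45). Among the lists with filled points to the right of 0 are the astrocyte (12 of 12), oligodendrocyte (7 of 8) and mural markers (6 of 8), and the fitted values of genes at 0 in WT depend on the prior count.

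**Figure D5:**
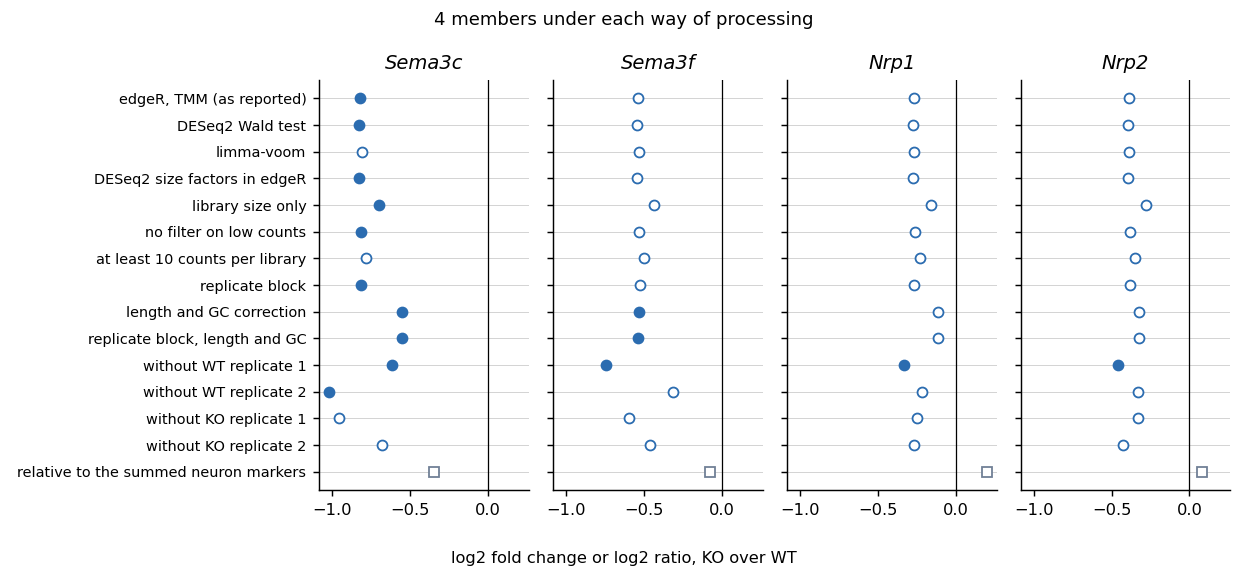
Log2 fold change of KO over WT for *Sema3c*, *Sema3f*, *Nrp1* and *Nrp2* under each way of processing, with filled circles for an adjusted p under 0.05 and squares for log2 ratios to the summed neuron markers, which have no test. *Sema3c* lies left of 0 throughout, and the neuropilins move to the right of 0 in the last row.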

How the data were processed

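RNA sequencing was analysed for 4 libraries, 2 *Dnmt1* WT and 2 *Dnmt1* KO. The values deposited by the authors are raw counts of reads for each Ensembl gene, without normalization. The submitters' processing notes name CASAVA 1.8.2, STAR 2.5.2a, featureCounts 1.5.0-p1 and the builds mm10 and GRCm38, while the annotation and the strand setting are not given in the sources used here. GENCODE release M21 held 55480 of the 55573 identifiers.

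Counts were filtered with edgeR's expression filter (16832 genes), scaled by TMM factors and tested by the quasi-likelihood method of edgeR (versions: edgeR 4.0.16, limma 3.58.1, DESeq2 1.42.0, R 4.3.3), in a model of genotype alone with Benjamini-Hochberg adjustment over all genes tested. Standard errors were derived from the test statistic. Levels per kb used the union of exons. The chi-square over its degrees of freedom was 58.2 for the WT pair and 4.31 for the KO pair, so that no library was a copy of another, which does not make them independent samples. The 9 members, the pathway and marker lists and the tests were chosen with earlier results of these data known. Named were all 9 members, *Dnmt1*, the 5 plexins, every other pathway gene with an adjusted p under 0.05 and the 2 genes most like each neuropilin in log2 CPM (prior count 2). *L1cam*, *Nrcam*, *Chl1* and marker genes outside this rule were named after their values were seen. Alternatives were DESeq2, limma-voom, DESeq2's size factors or library size in place of TMM, filtering either not at all or at 10 counts in each library, a block for the replicate number, a spline correction for length and GC content, both of these, and each library left out in turn. Promoter windows are from RefSeq (GRCm38.p6).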

Additional observations from a re-analysis of the deposited data

How the results depend on the processing

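Over the 8 genes tested, 66 of 70 values from 9 other fits and 22 of 32 values with a library left out kept their direction and their side of the threshold. The direction turned when a library was left out for *Sema3d* (-0.12 without WT replicate 2, -0.10 without KO replicate 2, range -0.12 to 0.14), *Sema3b* (-0.43 without KO replicate 2, to 0.98), *Sema3e* (0.0021 without KO replicate 2, from -1.31) and *Plxnd1* (-0.14 without WT replicate 1, to 0.25), and relative to the summed neuron markers for *Nrp1* (0.20) and *Nrp2* (0.082). The marker scaling raises the log2 value of every gene, so that small negative values turn by construction. The causes were not tested.

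Of the semaphorins and neuropilins, 0 were lower with limma-voom and with at least 10 counts in every library, and 2 after the length and GC correction, alone or with the replicate block. With a library left out the number was 0 to 4. The number of pathway genes lower was 1 with DESeq2, limma-voom, no filter or the replicate block, 5 with the correction and 3 with both, and with a library left out 0 to 10 were lower and 2 to 10 higher. Over all genes, 247 were lower with DESeq2, 573 with no filter, 52 with at least 10 counts, 619 with the replicate block, 949 with the correction (1973 higher) and 1023 with the correction and the replicate block (2030 higher). With a library left out 51 to 2180 were lower and 900 to 2578 higher. The share of higher genes among all calls was 92.8% as reported, 75.8% with no filter, 72.4% with the replicate block, 67.5% with the correction, 66.5% with the block and the correction, 66.5% without WT replicate 1 and 48.2% without WT replicate 2 (2029 higher, 2180 lower). Library size in place of TMM moved the median log2 fold change of all genes by 0.11, and *Sema3c* was then at -0.70.

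Libraries with the same number deviated together with a correlation of 0.16 across genes, and nothing else pairs them. With the replicate block *Sema3c* was at -0.82 (adjusted p = 0.0045) and the calls of the other 7 genes did not change. A fit without 1 library assumes that the lone library of a genotype varies like the others. Counts of 23 or fewer per library limit *Sema3b*, *Sema3e* and *Sema3g*.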
